A study of Mus musculus with 8 samples.

Results

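The Ifitm genes Ifitm1, Ifitm2, Ifitm3 and Ifitm6 were followed in single CD31-positive cells of the mouse embryo. These 4 members of 28014 measured genes were picked because earlier results of the same data had shown them higher in Myeloid cells of Meis1-deleted embryos, so their Myeloid values are a description, and the question asked was whether other cell types show the same difference. The cells came from the aorta-gonad-mesonephros region (AGM), where the first blood stem cells form, at embryonic day 10.5. CITE-seq, which counts RNA molecules and antibody tags of surface proteins in the same cell, gave 5 WT libraries and 3 libraries of Meis1-flox/VE-Cre embryos, called cKO here. In the cKO, Cre driven by the VE-cadherin promoter removes exon 8 of Meis1 in endothelium. The study measured this excision in sorted CD31-positive endothelial cells. Whether the blood cell types carry the deletion was not measured. The WT libraries are labelled C57BL/6 and the study describes WT embryos as littermates without Cre, while the Cre line was of mixed background, so any effect of strain or of Cre itself cannot be told apart from the deletion. Each library was a pool of 2 to 5 embryos. The study's annotation puts every cell in 1 of 10 types, namely arterial endothelium (aEC), the clusters vEC_1 to vEC_4, endothelium before it turns hemogenic (pre-HE), cells that are passing from endothelium to blood (EHT), erythro-myeloid progenitors (EMP), Myeloid cells and Megakaryocytes.

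Ifitm genes encode small interferon-induced transmembrane proteins that sit in the plasma membrane and in endosomes and block the fusion of enveloped viruses with the cell. Interferons raise their transcription, but stem and progenitor cells also express several of them without an interferon signal. In the early embryo Ifitm1 and Ifitm3, also named Fragilis genes, are known from primordial germ cells. Ifitm6 is known mainly from cells of the macrophage line.

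All 4 members lie in 1 cluster of 62056 bases on chromosome 7 (RefSeq, GRCm38.p6, the assembly that mm10 also denotes). Ifitm2 spans chr7:140954837-140959686, Ifitm1 chr7:140967429-140969827, Ifitm3 chr7:141009590-141010744 and Ifitm6 chr7:141015812-141016892. Ifitm1 is transcribed from the plus strand and the other 3 from the minus strand. Ifitm5, known from bone-forming cells, lies just beside this cluster and is no member. Their transcripts are similar in part. The longest run of bases shared exactly by the GENCODE transcripts of a pair was 69 for Ifitm2 and Ifitm3 and 64 for Ifitm1 and Ifitm3, and within the last 300 bases, where this 3' assay reads, it was at most 26. Ifitm6 shared at most 16 bases with any other member. Reads that fall in the shared stretches could be assigned to either gene or dropped in counting.

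For each of the 4 genes 1 promoter window (250 bases before to 50 after 1 RefSeq start site) was searched on both strands for 3 motifs. They are shown because they separate these windows by the elements that interferon factors read. For Ifitm1 (140968076) and Ifitm2 (140955961) the start site used lies inside the gene span given above. Windows at other starts of these genes were not searched. The interferon-stimulated response element core (ISRE; GAAA, any 2 bases, GAAA) was in the windows of Ifitm2 and Ifitm3 and in 3.44% of all 32851 windows. The interferon-gamma activated sequence (GAS) TTCNNNGAA, which reads the same on both strands, was in those of Ifitm3 and Ifitm6 and in 8.30% of all windows. The MEIS core TGACAG was in 19.2% of all windows and in none of the 4. The Ifitm1 window held none of these letters. The windows around the matches follow, on the strand of the gene (minus), with the motif in capitals. The GAS match of Ifitm3 overlaps the second of its ISRE matches, and a match is a run of letters and not a measured binding site.
Ifitm2, ISRE core, chr7:140955988-140956017: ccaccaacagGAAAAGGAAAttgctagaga
Ifitm3, ISRE core, chr7:141010723-141010752: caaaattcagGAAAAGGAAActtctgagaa
Ifitm3, ISRE core, chr7:141010706-141010735: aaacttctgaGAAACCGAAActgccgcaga
Ifitm6, GAS, chr7:141016883-141016912: ccatatgaacTTCCTTGAAacaagagcttc

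The table held 15168 cells, 8423 of WT and 6745 of cKO embryos, with 20484881 to 79429129 UMIs (counted RNA molecules) per library. The median UMIs per cell was 26572 to 28553 in WT 1 to 4 and 9612 to 14895 in WT 5 and the 3 cKO libraries, so depth moves with genotype except in WT 5, and the fitted comparisons of the members are also given against WT 5 alone. Meis1 itself stood at 13.7 to 26.5 CPM (UMIs of the gene per 1000000 UMIs) in WT and 9.16 to 13.8 in cKO libraries over all cells. The assay reads the 3' end of the RNA and the deleted exon lies before it, so these counts do not measure the deletion. Of the cell barcodes, 33 occurred in more than 1 library, and 83 cells (0.547%) were called as doublets. Markers fitted the labels used most below: EMP cells had the highest levels of the granulocyte and of the mast cell and basophil lists, and Myeloid cells had Csf1r at 125 to 222 and Cx3cr1 at 350 to 517 CPM. The macrophage list summed highest in Megakaryocytes, where Pf4, a platelet gene that the list also holds, made up most of it.

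The members differed in where they were expressed. Levels below are CPM of all UMIs summed over the cells of 1 type in 1 library, as mean ± SD over libraries, and the order of the types is a description because the types were clustered on the same RNA counts. Ifitm1 marked the blood side. In WT it was highest in EHT cells (481 ± 164, n = 5), then in EMP (140 ± 82.6) and Myeloid cells (76.7 ± 10.9), and the library ranges of EHT and EMP overlapped, as did those of EMP and Myeloid cells. Pre-HE had 28.1 ± 6.65 CPM and stood apart from Myeloid cells in all 5 libraries, and the 5 mature endothelial types had 1.58 to 3.60 on average, with overlapping ranges. In Megakaryocytes it averaged 14.6 ± 21.5 (n = 4), a mean set by WT 5 at 46.6 beside 0.724 to 6.62 in the other 3 libraries.

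Ifitm2 was the member found throughout. Its WT level was highest in pre-HE (794 ± 34.3), then in EHT (592 ± 71.1) and vEC_4 (408 ± 25.8), and these 3 types did not overlap. The mean levels of vEC_1, vEC_2, vEC_3, aEC and Megakaryocytes lay between 285 and 336 and each overlapped its neighbour in this order. EMP (152 ± 11.7) and Myeloid cells (150 ± 23.5) were lowest and overlapped each other. Ifitm3 shared the peak in pre-HE (516 ± 127) and came next in EHT (331 ± 41.8), with overlapping ranges. Myeloid cells followed at 178 ± 19.0 and did not overlap EHT, Megakaryocytes had 106 ± 37.8, and the 5 mature endothelial types had means between 66.9 and 101. EMP cells had the lowest Ifitm3, 28.1 ± 6.48 CPM, below every other type in all 5 libraries.

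Ifitm6 was almost confined to Myeloid cells. Their 5 WT libraries held 195 UMIs of it, 4.09 ± 1.499 CPM, and the 5 EMP libraries 6 UMIs. The other 8 WT types held 0 UMIs in the summed libraries. In vEC_2, the most deeply covered of them with 43030723 UMIs, a count of 0 allows a level of up to 0.0697 CPM (3 UMIs, counting error only). The 4 neighbours on chromosome 7 thus peaked in different WT cells, Ifitm1 in EHT, Ifitm2 and Ifitm3 in pre-HE and Ifitm6 in Myeloid cells.

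**Figure D1:**
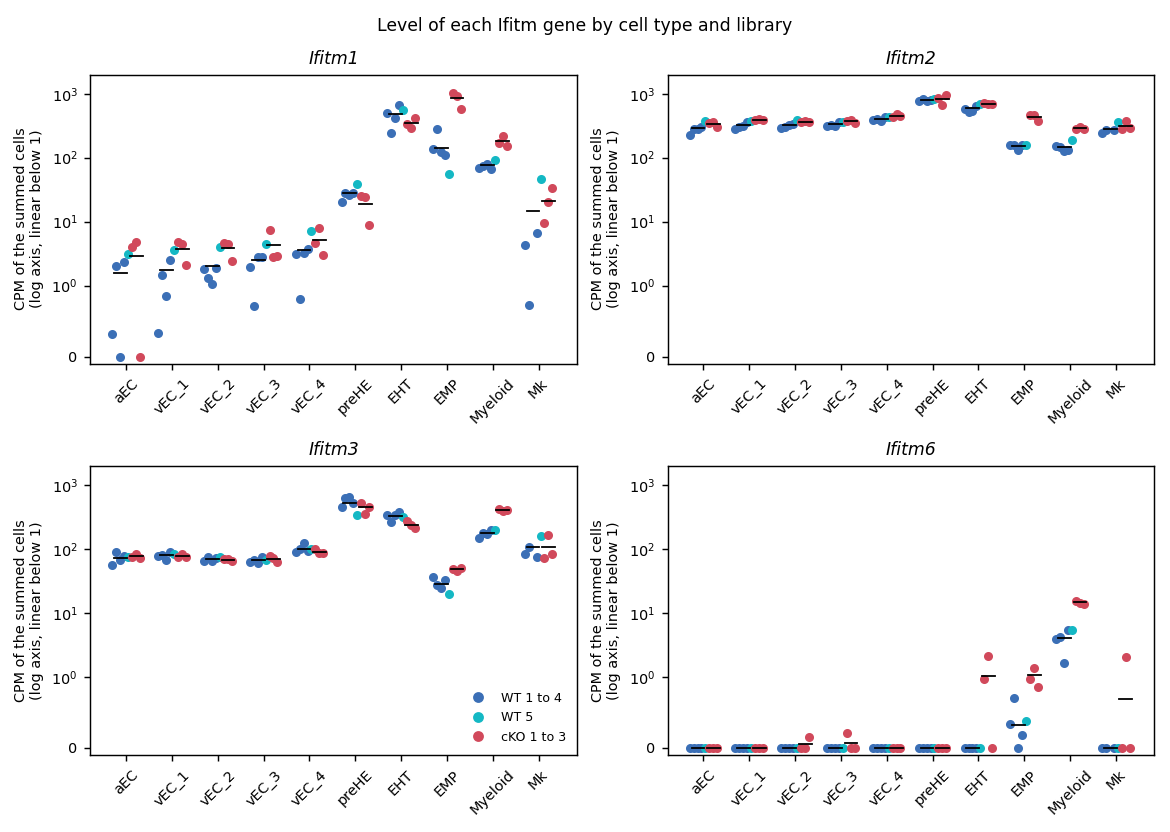
Level of each gene (y axis, CPM on a log axis that is linear below 1) in each cell type (x axis), 1 point per library (blue WT 1 to 4, turquoise WT 5, red cKO) and black bars at the genotype means. Ifitm1 runs from about 1.58 CPM in WT aEC to 481 in WT EHT, Ifitm2 is above 100 in all libraries, and the 3 cKO libraries stand above all WT libraries for all 4 genes in Myeloid cells.

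The genes whose pattern over the 49 WT sums of a library and a type was most like each member were sought among 11269 genes with at least 5 CPM in some type, by Pearson's r of log2(CPM + 1). The sums share libraries and clusters, so r is a description. For Ifitm1 they were Gsto1, a glutathione transferase (r = 0.907), Bcl11a, a transcription factor of blood progenitors (0.901), and Cd44, the hyaluronan receptor (0.895). For Ifitm2 they were Khdrbs3, an RNA-binding protein (0.933), Armcx3 (0.902) and Mecom, a factor of blood stem cells (0.899). For Ifitm3 they were Acta2, smooth muscle actin (0.834), Serpinf1 (0.831) and Tagln (0.823), which like Ifitm3 had their highest WT mean in pre-HE. For Ifitm6 they were Pilra (0.958), Phf11b (0.955) and the macrophage gene Mpeg1 (0.954). Between members, r was 0.674 for Ifitm2 and Ifitm3, 0.388 for Ifitm1 and Ifitm3 and -0.572 for Ifitm2 and Ifitm6. Ifitm6 had no WT UMIs outside Myeloid and EMP cells, so that last value mainly sets those types, where Ifitm2 was lowest, against the rest.

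In Myeloid cells, whose difference chose the genes, all 4 members were higher in the cKO and no library overlapped. Ifitm3 was at 151, 175, 172, 197 and 195 CPM in WT 1 to 5, against 426, 395 and 407 for cKO 1 to 3. Ifitm1 stood at 69.4, 75.3, 79.8, 65.4 and 93.4 in WT 1 to 5, while cKO 1 to 3 had 171, 217 and 152. Ifitm2 had 152, 148, 127, 133 and 188 CPM in the WT libraries against 283, 301 and 278 in those of the cKO. In each case the lowest cKO library was above WT 5, the highest or second highest WT library. Ifitm6 rested on few molecules, 3 to 68 UMIs per WT library (1.67 to 5.34 CPM) and 122 to 161 per cKO library (13.6 to 15.6 CPM). The fitted log2 fold changes of cKO over WT were 1.26 for Ifitm3, 1.29 for Ifitm1, 1.00 for Ifitm2 and 1.80 for Ifitm6, and against WT 5 alone they were 1.14, 1.02, 0.69 and 1.52. Beside them, 170 of 11479 genes (1.48%) were called higher and 3.26% called in either direction in cKO Myeloid cells by the same fit, 1.62% were called higher against WT 5 alone, and 3.07% had all cKO libraries above all WT libraries.

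The makeup of the Myeloid type differed between genotypes as well. The granulocyte list summed to 818 to 1305 CPM in WT and 2470 to 2960 in cKO Myeloid cells, with 4 of its 10 tested genes called higher. S100a8, a calcium-binding protein of neutrophils, ran from 0 to 206 CPM in WT and from 272 to 486 in cKO libraries. Much of the sum was Prtn3 (360 to 785 CPM in WT, 789 to 1016 in cKO) and Mpo (141 to 205 and 342 to 436). WT EMP cells also carried Prtn3 (668 to 939 CPM) and Mpo (479 to 753), so cells of this list need not be mature granulocytes. WT 5 was at the edge of the WT range for other lists in Myeloid cells. Its macrophage list summed to 2597 CPM and its monocyte list to 721, the lowest of WT, against 3693 to 5021 and 1266 to 1616 in the cKO, and its endothelial list to 428 against 233 to 297. In the fit against that library 8 of 18 macrophage and 3 of 9 monocyte genes were called higher in the cKO and 3 of 9 endothelial genes lower, and the part of this makeup in the Myeloid values against WT 5 was not tested. Myeloid cells were then divided by whether they held more UMIs of the macrophage or of the granulocyte list. Cells of the granulocyte list were 8.87 to 27.2% of Myeloid cells in WT and 26.2 to 34.1% in cKO libraries, with the WT 5 share (27.2%) inside the cKO range. Within the macrophage cells Ifitm3 was 158 to 244 CPM in WT and 382 to 416 in cKO libraries, and within the granulocyte cells 91.0 to 146 and 411 to 448. Ifitm2 within the macrophage cells was 107 to 215 CPM in WT and 289 to 316 in cKO libraries. So Ifitm2 and Ifitm3 were higher in cKO libraries within each division. Ifitm6 was lower in the macrophage cells (1.3 to 4.4 CPM in WT, 8.0 to 9.6 in cKO) than in the granulocyte cells (3.22 to 11.2 and 21.8 to 33.7). With a stricter cut, 3 times more UMIs of one list than of the other, that order held in the cKO (5.52 to 8.51 and 24.3 to 29.3) but turned in WT 3 and WT 4, where the granulocyte cells held 0 and 3 Ifitm6 UMIs. Ifitm1 in the granulocyte cells was 39.2 to 109 CPM in 4 WT libraries and 227 to 247 in the cKO, but WT 3, with 5 such cells, reached 235, within the cKO range. Under the stricter cut WT 3 kept 3 of these cells at 26.3 CPM, and the genotypes did not overlap (25.8 to 107 and 207 to 276). In the macrophage cells Ifitm1 was 44.5 to 108 and 115 to 206.

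**Figure D2:**
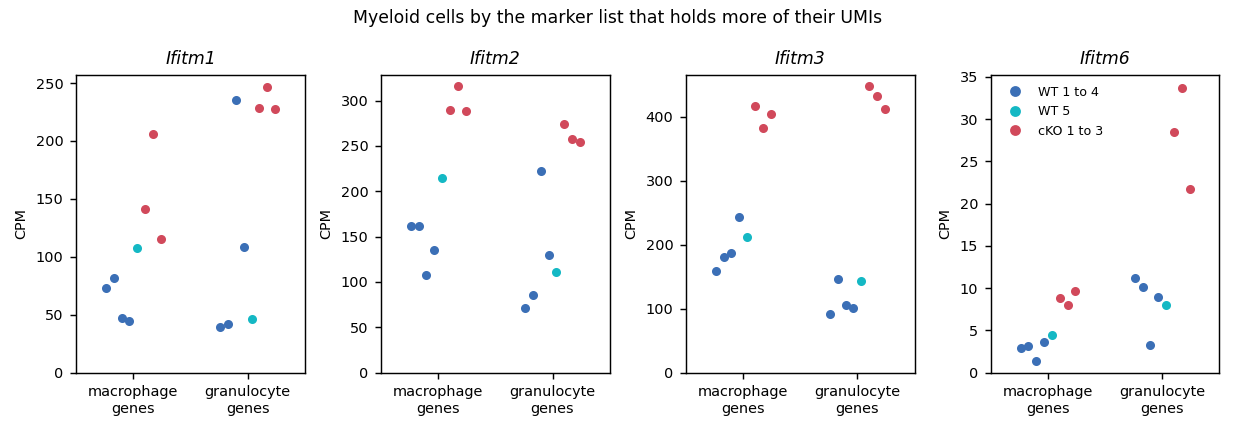
Level of each gene (y axis, CPM, linear from 0) in Myeloid cells that hold more UMIs of the macrophage or of the granulocyte list (x axis), 1 point per library. For Ifitm2, Ifitm3 and Ifitm6 the cKO points lie above all WT points in both divisions, and for Ifitm1 in the granulocyte cells WT 3 lies among them.

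Outside Myeloid cells the difference was found in EMP cells. EMP are the yolk sac-derived progenitors of red cells, macrophages, granulocytes and mast cells, and 357 cKO and 390 WT cells carried the label. Ifitm1 was at 138, 277, 122, 108 and 55.6 CPM in WT 1 to 5, against 1037, 938 and 578 for cKO 1 to 3. Ifitm2 was at 159, 157, 132, 155 and 159 CPM in WT and at 465.7, 462 and 379 in cKO libraries. Ifitm3 was at 36.3, 27.3, 24.2, 32.5 and 20.02 CPM in WT and at 49.2, 45.6 and 49.96 in cKO libraries. No library of 1 genotype reached the range of the other for any of the 3.

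edgeR's quasi-likelihood test over all 9172 genes of EMP cells called each of these 3 genes higher in the cKO, where 2.68% of the genes tested were called higher, 4.74% in either direction, and 4.32% had all cKO libraries above all WT libraries. Ifitm1 rose by a log2 fold change of 2.65 (SE 0.36, Benjamini-Hochberg adjusted p = 0.0061) and Ifitm2 by 1.57 (SE 0.095, adjusted p = 8.4e-06). Ifitm3 rose by 0.83 (SE 0.16, adjusted p = 0.030). Against WT 5 alone, whose depth is like that of the cKO, the values were 3.96, 1.48 and 1.29 with adjusted p of 0.00020, 0.0100 and 0.049 by edgeR, where 0.416% of 9381 genes were called higher. That comparison takes the spread from the 3 cKO libraries, and WT 5 had the lowest Ifitm1 and Ifitm3 of the WT libraries in EMP cells. The Ifitm3 call was the least steady of the 3: with cells thinned to 5000 UMIs each it was 0.52 with an adjusted p of 0.50, and it was also lost without cKO 1 (adjusted p = 0.14) and without cKO 3 (adjusted p = 0.10). Ifitm6 did not pass the filter on low counts, with 6 UMIs in WT and 7 in cKO EMP cells.

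**Figure D3:**
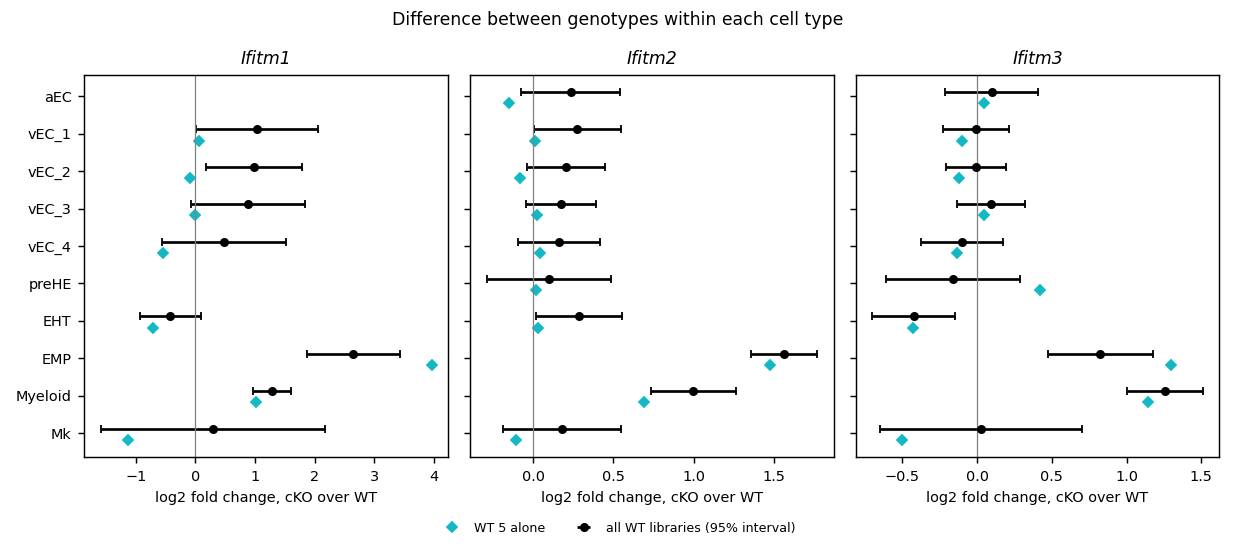
Log2 fold change of cKO over WT (x axis) for each cell type (y axis), with black points and 95% intervals for all WT libraries and turquoise diamonds for WT 5 alone; the x axes differ in scale. EMP and Myeloid cells stand to the right of 0 in all 3 panels, and most endothelial diamonds sit near 0.

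Markers of other cells moved with genotype in EMP too. The list of mast cell and basophil genes summed to 251 to 354 CPM in WT and 440 to 563 in cKO libraries, led by Cpa3, a protease of mast cell and basophil progenitors, at 47.1 to 139 and 202 to 282 CPM. Of the 5 tested genes of that list 1 was called higher, and Mcpt8, Prss34 and Tpsb2 were at 0 UMIs in all libraries. The granulocyte list summed to 1534 to 2180 and 2063 to 3779 CPM, with 2 of 8 tested genes called higher. The monocyte list summed to 84.5 to 112 and 145 to 167 CPM, with 2 of 7 called higher. The erythroid list summed to 31.5 to 259.7 and 368 to 1982 CPM, with 5 of 10 called higher. Not all of that list rose: the globin gene Hbb-bt was at 23.2 to 70.8 CPM in WT and 10.3 to 22.1 in cKO libraries. The macrophage list overlapped between genotypes (456 to 646 and 636 to 838 CPM) with 0 of 11 called. The part of these cells in the Ifitm differences was not tested beyond the division by Cpa3 and S100a8 that follows.

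Ifitm1 and Cpa3 were therefore set side by side within EMP cells, a division chosen after the values were seen. A Cpa3 UMI was found in 35.6 to 51.5% of EMP cells of WT and in 45.6 to 50% of cKO libraries. In cells with a Cpa3 UMI Ifitm1 was at 35.4, 328, 61.0, 53.0 and 66.6 CPM in WT 1 to 5, against 2080, 1901 and 1026 for cKO 1 to 3. In cells without one it was at 195, 243, 172, 169 and 48.3 CPM in WT and at 284, 227 and 220 in cKO libraries. The 2 genotypes were thus far apart in Cpa3-positive cells and overlapped in the others. The log2 fold change of Ifitm1 was 3.99 (SE 0.54) with a Cpa3 UMI, with an edgeR adjusted p of 0.0012, and 0.63 (95% interval -0.07 to 1.32, adjusted p = 0.46) without one. Against WT 5 alone, Ifitm1 was 4.65 with a Cpa3 UMI and 2.37 without (adjusted p = 0.0019), and WT 5 was the lowest of the WT libraries in the latter cells. A Cpa3 UMI is found more easily in deeper cells, and EMP cells had medians of 21434 to 53132 UMIs in WT and 14516 to 20501 in cKO libraries, a difference whose part in this division was not tested.

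Ifitm2 did not overlap between genotypes in either division. It was at 68.0 to 143 CPM in WT and 440.4 to 662 in cKO cells with a Cpa3 UMI, a log2 fold change of 2.36 (SE 0.20, edgeR adjusted p = 5.4e-05), and at 153 to 209 and 324 to 352 in cells without one, 0.99 (SE 0.10, adjusted p = 0.0013). Against WT 5 alone Ifitm2 was 2.11 (edgeR adjusted p = 0.0047) with a Cpa3 UMI and 0.97 without, where the call was lost (adjusted p = 0.22). The genes called in these fits were 10.6% of 7420 with and 0.588% of 8161 without a Cpa3 UMI. Ifitm3 was higher in cells without a Cpa3 UMI in all libraries but WT 5, where it was 21.3 with and 19.2 without. Its log2 fold change was 1.80 (edgeR adjusted p = 0.013) with and 0.57 (adjusted p = 0.39) without a Cpa3 UMI, but against WT 5 alone the order turned, with 0.61 (adjusted p = 0.65) and 1.69 (adjusted p = 0.10). When the EMP cells with an S100a8 UMI were left out, which were 0 to 4 cells per WT and 9 to 15 per cKO library, the fold changes were 2.73, 1.62 and 0.81.

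**Figure D4:**
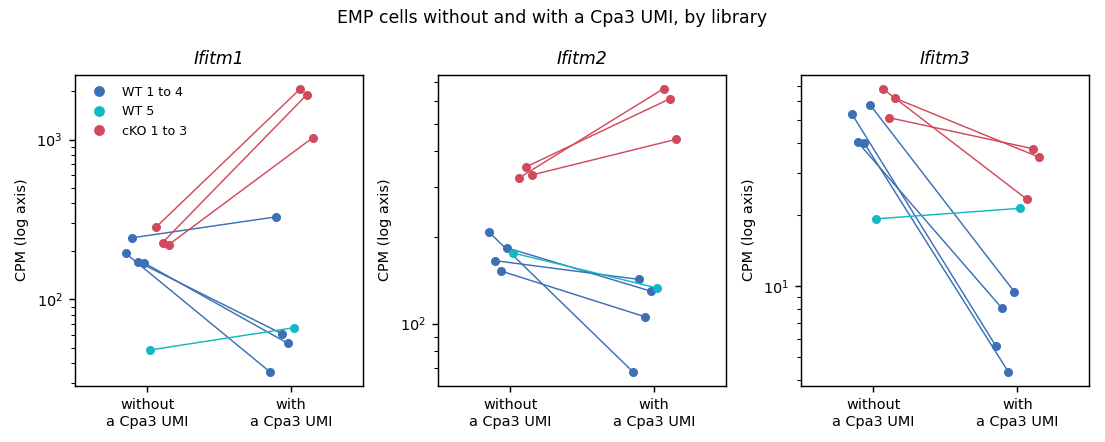
Level of Ifitm1, Ifitm2 and Ifitm3 (y axis, CPM, log axis) in EMP cells without and with a Cpa3 UMI (x axis), with a line for each library (blue WT 1 to 4, turquoise WT 5, red cKO). The Ifitm1 lines of the 3 cKO libraries rise from 220 to 284 up to 1026 to 2080 CPM, while those of WT 1, WT 3 and WT 4 fall.

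Ifitm1 was also unevenly spread over EMP cells. The 10% of cells with most Ifitm1 UMIs held 67.6 to 80.8% of them in WT and 60.2 to 78.5% in cKO libraries, whereas for Ifitm2 the top 10% held 34.3 to 46.7% and 33.5 to 39.9%. The number of cells with any Ifitm1 also differed. With each cell thinned to 5000 UMIs, so that depth is equal, 21.2 ± 5.1% of WT and 51.7 ± 4.4% of cKO EMP cells had an Ifitm1 UMI, a difference of 30.5 points. For Ifitm2 the shares were 42.5 ± 6.8% and 72.8 ± 4.3%, and for Ifitm3 9.20 ± 4.4% and 13.7 ± 2.2%. For Ifitm1 and Ifitm2 each cKO library was above each WT library (two-sided exact permutation p = 0.0179, the smallest that 5 against 3 allows), but with 36 member and type pairs tested the adjusted p was 0.32. Unthinned, the shares were 48.3% and 71.9% for Ifitm1 and 87.6% and 91.6% for Ifitm2. In aEC, which carry little Ifitm1, the thinned share was 0.662% in WT and 1.51% in cKO libraries at median depths of 9705 to 21911 and 7035 to 10207 UMIs, so the EMP shares lie well above that level.

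EHT cells, which already carry much Ifitm1, did not share the rise. Ifitm1 was at 504, 243, 415, 677 and 567 CPM in WT and at 335, 292 and 420 in cKO libraries, and the genotypes overlapped. The log2 fold change was -0.42 (95% interval -0.94 to 0.10), with an edgeR adjusted p of 0.63, and -0.71 (-1.13 to -0.28, adjusted p = 0.86) against WT 5, so both intervals leave out a rise of the size seen in EMP cells. Ifitm3 was at 344, 269, 338, 384 and 320 CPM in WT and at 271, 238 and 211 in cKO libraries, -0.42 on the log2 scale (-0.70 to -0.15, edgeR adjusted p = 0.29) and -0.43 against WT 5. Ifitm2 was at 523 to 684 CPM in WT and 694 to 720 in cKO libraries, with no overlap as in 2.68% of genes, but the log2 fold change of 0.28 did not pass the test (adjusted p = 0.49) and was 0.03 against WT 5. Of all 8670 genes tested in EHT, 0.127% were called, 0.0577% as higher.

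Megakaryocytes, the platelet-forming cells, gave a wide answer for Ifitm1. It was at 4.36, 0.724, 6.62 and 46.6 CPM in WT 1, 2, 4 and 5 and at 9.68, 20.5 and 33.2 in cKO libraries, and WT 3 was left out with 5 cells. The log2 fold change was 0.30 with an interval from -1.59 to 2.18, which leaves room for a change as large as in Myeloid cells. Against WT 5 alone, the highest WT library, the direction turned to -1.13 (-2.08 to -0.18), with an edgeR adjusted p of 0.92. Ifitm2 was 0.18 (-0.19 to 0.55) and Ifitm3 0.02 (-0.65 to 0.70), or -0.11 and -0.50 against WT 5, and none of the 3 was called (edgeR adjusted p of 0.81 or more against all WT libraries), where 0.206% of 7770 genes were.

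In pre-HE, with 11 to 87 cells per library, Ifitm2 stayed at 759 to 830 CPM in WT and 660.5 to 946 in cKO libraries, and Ifitm3 at 341 to 648 and 359 to 525. Their log2 fold changes were 0.10 (-0.29 to 0.49) and -0.16 (-0.61 to 0.29) by edgeR, or 0.02 and 0.42 (-0.25 to 1.09) against WT 5, and neither was called, while 0.489% of 3682 genes were. Ifitm1 had 1 to 35 UMIs per library and did not pass the filter on low counts in pre-HE or aEC.

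In mature endothelium Ifitm3 was steady. Its log2 fold changes in aEC and vEC_1 to vEC_4 ran from -0.10 to 0.10, or from -0.13 to 0.05 against WT 5, and in vEC_2, with the narrowest interval, it was 0.00 (-0.21 to 0.20). Ifitm2 ran from 0.16 in vEC_4 to 0.27 in vEC_1 against all WT libraries and from -0.15 to 0.04 against WT 5. In vEC_1 it was at 277, 307, 309, 361 and 382 CPM in WT and at 387, 397 and 387 in cKO libraries, so that the cKO lay above all WT libraries, as in 2.94% of genes, with WT 5 next to them. Ifitm1 was close to the limit of detection. In vEC_2 it had 6 to 32 UMIs per WT library and 13 to 26 per cKO library, or 1.06 to 3.94 and 2.46 to 4.64 CPM. Its log2 fold change there was 0.98 (0.18 to 1.78, edgeR adjusted p = 0.27) against all WT libraries and -0.10 against WT 5. It was 1.02 (0.001 to 2.05) in vEC_1, 0.88 (-0.08 to 1.84) in vEC_3 and 0.48 (-0.55 to 1.52) in vEC_4. Against WT 5 these were 0.06, -0.01 and -0.54. The intervals against all WT libraries leave room for a change as large as in Myeloid cells. No member was called in any of the 5 endothelial types, where 0% of genes were called in aEC, vEC_1, vEC_3 and vEC_4 and 0.0187% in vEC_2. DESeq2 called 11 to 87 genes per endothelial type, and 895 to 1527 genes were under an unadjusted p of 0.05 by edgeR. Without WT 5 Ifitm1 in vEC_2 was 1.27 (adjusted p = 0.026) and Ifitm2 was 0.35 in vEC_1 (adjusted p = 0.086) and 0.28 in vEC_2 (adjusted p = 0.096), in a comparison of shallow cKO with deep WT libraries only, in which depth and genotype cannot be told apart.

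Over the 36 pairs of a member and a type outside Myeloid cells, 25 could be tested, 3 were called higher and 0 lower, and all 3 were in EMP. Against WT 5 alone the 3 EMP pairs were again the ones called, beside 0.0373% of genes called higher in EHT, 0.109% in Megakaryocytes and 0.077% in pre-HE. All cKO libraries stood above all WT libraries in 5 of the 25, the 3 in EMP and Ifitm2 in EHT and vEC_1. The share of genes with that order was 2.48% in aEC, 2.04% in pre-HE, 4.11% in Megakaryocytes, 2.4% in vEC_2, 2.35% in vEC_3 and 1.6% in vEC_4, where no tested member had it. Whether the EMP difference itself exceeded that of another type was then tested on the log2 ratio of EMP to the other type within each library, by exact permutation of the genotypes over the libraries, a test added after the EMP result was known. All 24 comparisons reuse the EMP values that prompted them, so the adjusted p does not allow for that choice. For Ifitm2 the EMP ratio was 1.24 to 1.47 higher in the cKO against each of the 8 other types. It passed against 7 of them (exact permutation p = 0.0179, adjusted p = 0.036 over 24 comparisons), and against Megakaryocytes, with 4 WT libraries, p was 0.0286 and the adjusted p 0.053. For Ifitm1 the difference was 3.36 against pre-HE and 3.13 against EHT, both with the same exact p of 0.0179, and 1.35 against Megakaryocytes (exact p = 0.51). Against the 5 endothelial types it was 1.85 to 2.27, with adjusted p of 0.071 to 0.12, and 3.86 to 4.36 when WT 5 stood for WT. For Ifitm3 it passed against EHT (1.25), vEC_1 (0.81) and vEC_3 (0.72).

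Other genes of the interferon pathway were taken as lists. Of 14 tested interferon receptor and signalling genes, which include Ifnar1 and Irf9, 0 were called in EMP cells. Their median log2 fold change was 0.09 beside -0.003 over all genes, and against WT 5 alone 0.20 beside 0.015. The interferon-stimulated list summed to 423 to 523 CPM in WT and 681 to 772 in cKO EMP cells, with means of 482 and 731. Most of that difference lay in 1 gene, Ly6e, whose levels follow. Of its 12 tested genes 1 was called higher in EMP (median 0.06, and 0.51 against WT 5 alone). That was Ly6e, a membrane-anchored protein that limits coronavirus entry, at 253 ± 38.1 CPM in WT and 480.3 ± 57.2 in cKO libraries, a log2 fold change of 0.98 (SE 0.13, edgeR adjusted p = 0.0056), and 0.78 (adjusted p = 0.19) against WT 5. Of 8 antigen presentation genes 1 was called higher (list median -0.11, and 0.45 against WT 5 alone). That gene was B2m, the light chain of class I molecules, higher by 0.35 (SE 0.10, edgeR adjusted p = 0.093) and by 0.45 against WT 5. Genes that rise most with interferon were near the limit of detection. Isg15, with 25 UMIs over all EMP libraries, was at 0 to 1.94 CPM in WT and 0.487 to 5.07 in cKO EMP cells. Irf7, with 12 UMIs, was at 0 to 0.661 and 0.431 to 1.38. Bst2, another antiviral membrane protein, overlapped at 58.1 to 92.1 and 62.2 to 83.1 CPM.

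In Myeloid cells 34 interferon-stimulated genes could be tested and 1 was called, again Ly6e (0.73, SE 0.14, edgeR adjusted p = 0.031; 0.45 with an adjusted p of 0.40 against WT 5). None of 17 receptor and signalling genes and none of 9 antigen presentation genes were called there, with list medians of -0.055 and -0.10. With WT 5 as the only WT library those medians were 0.16 and 0.50. The interferon-stimulated median was 0.07, or 0.42 with WT 5 as the only WT library. That list summed to 759 to 920 CPM in WT and 962 to 1078 in cKO Myeloid cells. Its mean went from 854 to 1003 CPM, and that of Ly6e alone from 261 to 416. Against WT 5 alone 2 interferon-stimulated, 1 signalling and 2 antigen presentation genes were called higher in Myeloid cells and 0 in EMP cells. Of the 6 genes known to process or bind Ifitm proteins, such as the palmitoyltransferase Zdhhc20, the ubiquitin ligase Nedd4 and the partner Zmpste24, 0 were called in EMP or Myeloid cells. In the other 8 types 0 genes of these 4 lists were called.

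Within EHT and EMP cells the levels were also set against the antibody tags. Cells of each library were divided at the median count of a tag, in the 7 libraries with tag counts (the total was 0 in WT 4). Tag counts were fewer in some libraries, with 133391 over 2061 cells in cKO 3 and 935392 over 1523 cells in WT 2, so some divisions rest on few counts per cell. In this division at the median CD43, the sialoglycoprotein that emerging blood cells gain, gave the clearest pattern. In EMP cells Ifitm1 was higher in the CD43-high cells of all 7 libraries, by a mean of 1.05 ± 0.57 (SD) on the log2 scale, and Ifitm2 by 0.56 ± 0.36, also in 7 of 7. In cKO 1, for instance, Ifitm1 was 1360 CPM in CD43-high and 731 in CD43-low EMP cells, and in WT 2 417 and 118. In EHT cells Ifitm1 was higher with CD43 in 6 of 7 libraries (0.60 ± 0.54) while Ifitm2 was lower in 7 of 7 (-0.28 ± 0.15).

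Each of the 7 of 7 results had a two-sided exact sign-flip p of 0.0156, the smallest that 7 libraries allow, and an adjusted p of 0.13 over the 30 tests that had enough UMIs, so none passed. When tag counts were divided by the RNA UMIs of the cell, the EHT difference of Ifitm2 was -0.08 and lower in 4 of 7 libraries, while Ifitm1 was higher with CD43 in 7 of 7 libraries in EHT (0.85) and in EMP cells (1.65). CD41, the platelet integrin that also marks early progenitors, went the other way for Ifitm1 in EMP cells without passing (-1.21 ± 1.46, higher in 2 of 7, exact p = 0.0938, adjusted p = 0.23). Ifitm3 was higher in CD27-high EMP cells in the 6 libraries with enough cells (1.24 ± 0.95, exact p = 0.0312, adjusted p = 0.13).

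**Figure D5:**
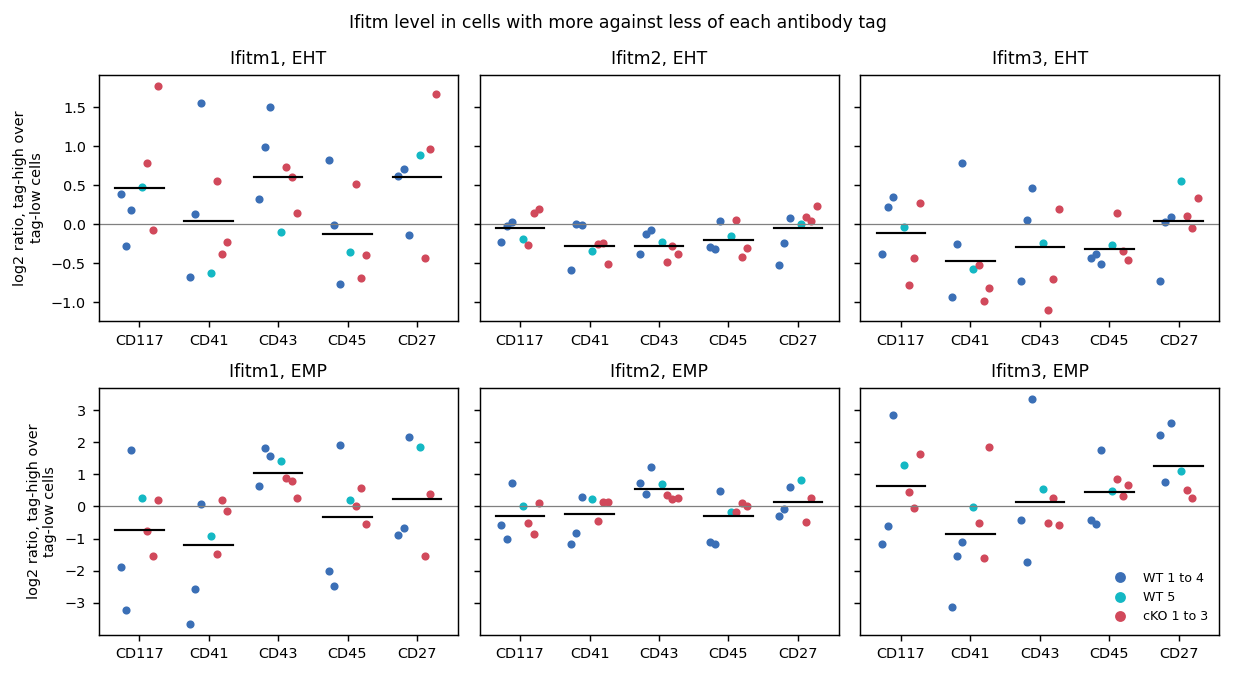
Log2 ratio of the level in tag-high over tag-low cells (y axis) for 5 antibody tags (x axis) in EHT (top) and EMP cells (bottom), 1 point per library with the mean as a bar. The Ifitm1 and Ifitm2 points of EMP cells for CD43 all lie above 0.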

How the data were processed

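RNA and antibody tags were measured in 8 CITE-seq libraries of AGM cells. The authors deposited raw UMI counts for 28014 genes and 6 tags, with no normalization, made with Cell Ranger 3.0.2 on mm10 according to the submitters' processing notes (10x 3' v3 kit), after removal of cells with few genes or a high mitochondrial share, and a second table of each cell's sample, genotype and type. The depth was 20484881 to 79429129 UMIs per library, which limits the precision, and floors cover counting error only. The members and lists were chosen with earlier results of these data known.

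Here each library's cells of a type (at least 10) gave 1 column of summed counts, tested with edgeR 4.0.16 (R 4.3.3, TMM, filterByExpr, quasi-likelihood, two-sided, Benjamini-Hochberg, adjusted p under 0.1), 5 libraries against 3, without a block. The standard error is the size of the log2 fold change divided by the square root of F. In simulated counts 200 of 9033 to 10577 genes were changed. For changes of 1 on the log2 scale, 76.5% in EMP and 88.5% in vEC_2 were recovered, and 4.38% and 14.1% of calls were false. For changes of 1.5, 90.5% and 95.5% were recovered, and 9.95% and 7.73% of calls were false. Unchanged genes had the same simulated share in deep and shallow libraries, so these values leave out any effect of depth. Labels do not say that libraries were separate litters, so p-values measure the spread between these pools. Exact tests permuted libraries (56 splits) or flipped signs. Thinning drew 5000 UMIs per cell. Tag ratios had 0.5 UMIs per library added, and ratios of types 1 CPM. The CD44 tag, missing in 6309 cells, was not used. Doublets were called by Scrublet and kept. Named genes were the 4 members, list genes called outside Myeloid cells, the 3 most alike genes of each member and markers that check a label. Cpa3, S100a8, Mpo, Prtn3, Hbb-bt, Isg15, Irf7 and Bst2 were chosen after their values were seen. The motifs searched were also chosen then. Shared runs came from GENCODE vM1 transcripts, whose older build was used for no coordinate. Alternatives were RLE, DESeq2 1.42.0, other thresholds, filters and cell minimums, thinning, doublets, depth covariates, the replicate block and left-out libraries.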

Additional observations from a re-analysis of the deposited data

Results flagged for a closer look

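Of 32 WT groups of 4 or 5 libraries with values above 0, 3 held a library far from the others by Dixon's test, and chance alone gives about 1 in 20. Ifitm1 in Megakaryocytes was 46.6 CPM in WT 5, the highest of 4 WT libraries. Ifitm1 in vEC_2 was 3.94 CPM in WT 5, the highest of 5. Ifitm2 in EMP cells was 132 CPM in WT 3, the lowest of 5, while the 3 cKO libraries were at 379 to 465.7.

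In 12 of 24 comparisons the log2 ratio of EMP to another type differed between genotypes by exact permutation (adjusted p = 0.0357 each). Each was at the smallest exact p that 5 against 3 allows, 0.0179. The test was added after the EMP result was known and all 24 comparisons reuse those EMP values, so the adjusted p does not allow for that choice. For Ifitm1 the ratio was higher in the cKO by 3.36 against pre-HE and 3.13 against EHT. For Ifitm2 it was higher by 1.28 against aEC, 1.47 against pre-HE, 1.25 against EHT, 1.24 against vEC_1, 1.34 against vEC_2, 1.36 against vEC_3 and 1.37 against vEC_4. For Ifitm3 it was higher by 1.25 against EHT, 0.808 against vEC_1 and 0.72 against vEC_3. Depth per cell moves with genotype in these ratios, and with WT 5 as the only WT library these 12 differences were 1.18 to 4.97.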

How the results depend on the processing

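The count of member and type pairs called higher in the cKO outside Myeloid cells was 3 in the main analysis. It was 6 with libraries 1 to 3 of each genotype, and 1 when EMP cells with a Cpa3 UMI were left out, an alternative chosen after seeing the data. With each library left out in turn it ranged from 2 to 6, the highest without WT 5 and the lowest without cKO 1 or cKO 3. Pairs called lower were 0, and 1 with no filter on low counts, which was Ifitm3 in EHT.

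The replicate numbers 1 to 3 occur in both genotypes. The deviations of same-numbered libraries correlated above 0.1 in 13 of 27 pairs over 9 types (-0.179 to 0.223), so not every pair passed that bar and the number was not used to pair libraries. In 19 of 27 cases a library matched its own number best, at most a hint of something shared that the labels do not state. These cases are the same 3 numbers seen in 9 types of the same pools, so they are not independent. WT 1 matched cKO 2 best in all of these types but pre-HE and EMP. With the number as a replicate block, 10 pairs were called higher, and these fits leave out WT 4 and WT 5.

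Ifitm1 and Ifitm2 in EMP cells kept their calls in all 21 alternatives, with log2 fold changes of 2.30 to 3.97 and 1.43 to 1.79. The minimums of 5 and 20 cells kept the same EMP libraries as the main fit, so those alternatives could not differ from it. Ifitm3 in EMP cells ran from 0.52 to 1.32 and lost its call in 5 of 21, among them the covariates for depth (adjusted p of 0.12 and 0.13). The 4 Myeloid log2 fold changes stayed between 0.67 and 2.07 in these alternatives. Counts of called genes went from 435 to 828 in EMP and from 374 to 1421 in Myeloid cells without WT 5, to 408 in aEC and to 285 to 1002 in the vEC types, where 0 to 2 were called with it. They fell to 7 in EMP with depth class and to 2 in Myeloid cells with median UMIs as a covariate. The cause was not tested. Cells of pre-HE and Megakaryocytes were few, and Ifitm6 outside Myeloid cells was below what this depth can compare.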
